A study of Mus musculus with 20 samples.

Results

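The genes described here encode the mitochondrial respiratory chain and ATP synthase. The nuclear set holds the symbols that begin with Ndufa, Ndufb, Ndufc, Ndufs, Ndufv, Uqcr, Cox4i, Cox5, Cox6, Cox7, Cox8 or Atp5, together with Sdha, Sdhb, Sdhc, Sdhd, Cyc1 and Cycs, without pseudogenes. The mitochondrial set holds every symbol that begins with mt-, which is the gene content of the mitochondrial DNA. Of the 55487 genes in the table of spleen and lymph node samples, 96 were nuclear members and 37 were mitochondrial members, of which 13 encode proteins, 2 encode ribosomal RNAs and 22 encode transfer RNAs. Of these, 91 nuclear members and 15 mitochondrial members had enough counts to be tested there. The table of treated and untreated mice held 95 nuclear members, of which 90 were tested, and 28 of 37 mitochondrial members were tested. The table of reporter mice held 96 nuclear members, of which 91 were tested, and 15 of 37 mitochondrial members were tested.

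RNA sequencing was done on bulk sorted mouse type 1 conventional dendritic cells (cDC1s), which take up dead cells and present their antigens to T cells, in 8 groups and 20 libraries. In the first experiment, XCR1+CD8a+ cDC1s came from C57BL/6 wild-type mice at day 15 after TLI/ATS (lymphoid irradiation plus serum against thymocytes, a conditioning regimen used in transplantation; 2 libraries) or from untreated mice (2 libraries). In the second, EpoR+ and EpoR- cDC1s (2 libraries each) were sorted from EpoR-tdTomato mice, in which a red fluorescent protein reports the erythropoietin receptor gene Epor, and both groups had received TLI/ATS with collection at day 15. In the third, CCR7+ XCR1+ SIRPa- cDC1s from spleen and migratory XCR1+ SIRPa- cDC1s from peripheral lymph nodes, also labelled CCR7+, came from Eporflox/flox control mice and from mice that lack Epor in XCR1-expressing cells (Epor-Xcr1-Cre cKO, "cKO" below; 3 libraries in each of 4 groups). Per the labels the controls carry the floxed allele without Cre, so loss of Epor and presence of Cre cannot be told apart, and the sort gate differs between the tissues. No age is given, and no label says that the libraries of a group came from separate animals, so p-values measure the spread between these libraries, which may be technical.

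The respiratory chain moves electrons from NADH (complex I) and from succinate (complex II) to ubiquinone, then through complex III and cytochrome c to complex IV, where oxygen is reduced. The resulting proton gradient drives ATP synthase (complex V). Complexes I, III, IV and V are assembled from subunits of both genomes, whereas complex II and cytochrome c are nuclear only. In dendritic cells, activation is known to shift energy metabolism between oxidative phosphorylation and glycolysis.

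Transcription factors known to act on many nuclear members recognise short motifs. RefSeq promoters (GRCm38.p6, 250 bases before to 50 bases after the start) were found for 75 of 95 symbols, as 80 promoters. The NRF1 motif GCGCATGC, sought on both strands (reverse complement GCATGCGC), was in 13 of the 80 (16.2%) and in 2.71% of all 32851 promoters. The ETS motif CCGGAAGT (reverse ACTTCCGG) was in 6.25% against 3.89% of all promoters, and the YY1 motif AAGATGGC (reverse GCCATCTT) in 12.5% against 2.75%. The CREB motif TGACGTCA, which is its own reverse complement, was in 6.25% against 1.79%, and the ERRa motif AAGGTCA (reverse TGACCTT) in 10% against 4.72%. A match describes letters in a window and shows neither a binding site nor a cause. The 5 promoter windows below are printed to show the motifs in genes that the results below turn on. They were chosen after the values were seen. Capitals mark the motif, and the sequences run 5′ to 3′ on the gene's strand. The Cycs window (chr6:50566612-50566748, minus strand, position -179 to -43 from the start) has a CREB and an NRF1 match. Sdhb (chr4:140961181-140961260, plus strand, -90 to -11) and Cox6a1 (chr5:115349076-115349155, minus strand, -197 to -118) have NRF1 matches, which in Cox6a1 lie on both strands and overlap. Ndufs3 (chr2:90904692-90904771, minus strand, -50 to 29) and Cox8a (chr19:7217587-7217666, minus strand, -50 to 29) have ETS matches.
Cycs: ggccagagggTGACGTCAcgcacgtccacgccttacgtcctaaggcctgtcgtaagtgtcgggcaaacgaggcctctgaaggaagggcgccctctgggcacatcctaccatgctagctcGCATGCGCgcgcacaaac
Sdhb: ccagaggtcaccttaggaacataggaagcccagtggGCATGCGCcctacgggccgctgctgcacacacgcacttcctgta
Cox6a1: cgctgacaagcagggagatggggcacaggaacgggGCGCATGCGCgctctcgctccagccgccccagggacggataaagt
Ndufs3: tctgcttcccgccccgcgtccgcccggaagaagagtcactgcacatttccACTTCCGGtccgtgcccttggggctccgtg
Cox8a: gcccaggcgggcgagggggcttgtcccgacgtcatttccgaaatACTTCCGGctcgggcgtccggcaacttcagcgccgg

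The libraries held 26618029 to 77570149 gene counts each. Epor was at 3.04 and 1.89 CPM (counts per 1000000 counts of the library) in the TLI/ATS libraries and at 0 in both untreated libraries, at 14.1 and 17.3 CPM in EpoR+ and at 0.0997 and 0.327 CPM in EpoR- libraries. In the cKO experiment Epor was too low to test. It was at 0.108 to 0.682 CPM in lymph node controls and at 0 in all 3 lymph node cKO libraries, but at 0 to 0.169 CPM in spleen controls and 0 to 0.0621 CPM in spleen cKO libraries, so the spleen labels could not be checked by this gene. The 11 cDC1 markers summed to 7719 to 17790 CPM in the first and second experiments and to 3079 to 3591 CPM in the third.

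The share of all gene counts that came from the mitochondrial genome was lower after TLI/ATS than in untreated mice and lower in the lymph nodes than in the spleens of control mice, while the nuclear share overlapped between groups in every table. These shares are described without a test. Mitochondrial genes gave 0.656% and 0.833% of counts in the TLI/ATS libraries and 1.135% and 1.013% in the untreated libraries, and these groups did not overlap. In the reporter mice they gave 1.364% and 1.511% in EpoR+ and 1.505% and 1.558% in EpoR-, which overlapped. Spleen controls were at 1.737%, 1.661% and 1.083%, and spleen cKO libraries at 0.846%, 0.790% and 0.957%, again without overlap. Lymph node controls were at 0.486%, 0.551% and 0.782%, and lymph node cKO libraries at 0.516%, 0.855% and 0.495%, which overlapped. The tissues did not overlap in controls, but in cKO mice the second lymph node library (0.855%) lay above spleen cKO 1 and 2. The third library of the spleen controls, the third of the lymph node controls and the second of the lymph node cKO group stood apart from the other two of their groups. The widest 95% Wilson interval of any of these shares was 0.00485 percentage points on either side, which covers counting error only.

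What the mitochondrial counts were made of differed strongly between the 3 tables. Protein-coding genes made up 70.3% to 76.2% of mitochondrial counts in the first, 96.9% to 97.2% in the second and 25.5% to 42.6% in the third, with the 2 ribosomal RNAs taking nearly all the rest. The protein-coding share of all counts was 0.5002% and 0.5971% in TLI/ATS, 0.798% and 0.727% in untreated libraries, and 0.454%, 0.424% and 0.293% in spleen controls. In spleen cKO libraries it was 0.290%, 0.303% and 0.308%, so that without ribosomal RNA the third control lay among the cKO libraries. Library kits and counting settings differ between the tables, so shares are compared only within a table.

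**Figure D1:**
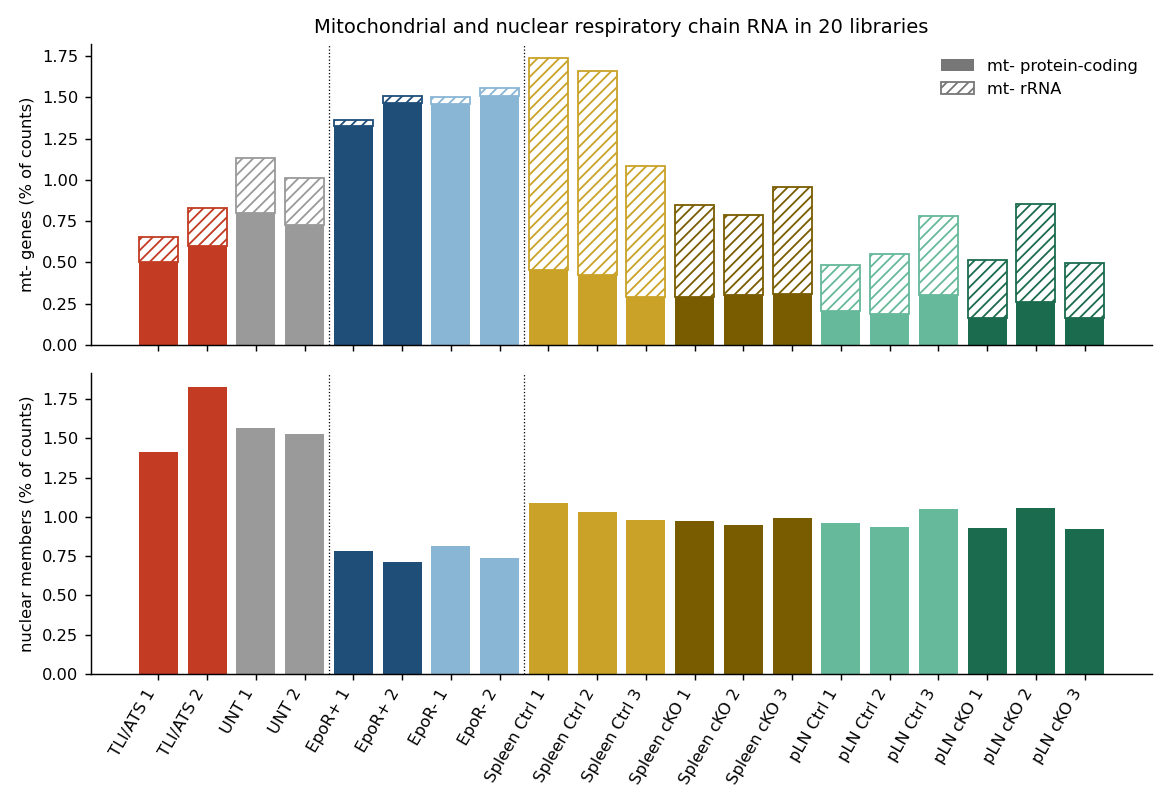
Share of all gene counts, in percent, from the 37 mitochondrial genes (upper panel; solid, protein-coding, hatched, ribosomal RNA) and from the nuclear respiratory chain genes (lower panel) in each of the 20 libraries, with axes starting at 0. The mitochondrial share is lower in both TLI/ATS libraries (0.656% and 0.833%) than in both untreated ones, and the spleen controls carry the most ribosomal RNA.

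The nuclear members together gave 1.41% and 1.83% of counts in TLI/ATS and 1.56% and 1.53% in untreated libraries, 0.786% and 0.714% in EpoR+ and 0.815% and 0.737% in EpoR-. In the third experiment all 12 libraries lay between 0.925% and 1.09%. The groups of each table overlapped. Of the spleen controls 2, at 1.09% and 1.03%, lay above the cKO libraries at 0.977%, 0.949% and 0.992%, and the third control, at 0.981%, lay among them.

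Among subunits that exist in several isoforms, the common form dominated in all 8 groups. These levels are group means in CPM per kilobase of exon, which allows genes to be set side by side. Exon length here is all annotated exon bases of a gene, which can exceed the length of a single transcript. Ranges over the groups span separate experiments and do not rank groups between them. Cox6a1, the widely expressed form of subunit VIa of complex IV, was at 250.3 to 768.9, and Cox6a2, the heart and muscle form, was at 0.2204 to 62.35. Cox4i1, the common form of subunit IV, was at 150.3 to 511.1, and Cox4i2, the form known from lung and low oxygen, reached 2.912 in EpoR+ and less elsewhere. Within their experiments Cox6a2 was higher in untreated mice than after TLI/ATS, and Cox4i2 was higher in EpoR+ than in EpoR- cells. Cox6b1 was at 136.2 to 468.2 against at most 3.475 for the testis form Cox6b2, and Cox7a2 at 64.67 to 198.3 against at most 2.943 for the muscle form Cox7a1. Cox7a2l, which takes part in joining complexes III and IV into supercomplexes, was at 122.8 to 266.9. Cox8a, at 271.9 to 685.1, was together with Cox6a1 and Cox4i1 among the highest nuclear members, whereas Cox8b had no count in any library (3 counts would be 0.1127 CPM in the shallowest) and Cox8c reached 0.03547. Ndufa4, first counted as a complex I protein and now placed in complex IV, was at 58.12 to 142.5 and its paralog Ndufa4l2 at no more than 0.1957.

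Within complex II the 4 genes differed in level per kilobase. The ranges given here also span separate experiments and do not rank groups between them. Sdhd, a membrane anchor, was the highest of the 4 genes in each group, from 66.01 ± 5.339 CPM per kilobase (SD, n = 3) in spleen controls to 214.9 ± 16.40 (SD, n = 2) in TLI/ATS libraries. Sdhc, the other anchor, was the lowest in each group, from 8.651 ± 0.6827 (SD, n = 3) in spleen controls to 36.65 ± 3.910 (SD, n = 2) in TLI/ATS libraries. Sdha, the flavoprotein that oxidises succinate, ranged from 30.07 to 70.21, and Sdhb, the iron-sulfur subunit, from 40.59 to 133.3. Cyc1, the haem subunit of complex III, ranged from 38.92 to 89.80, and Cycs, the mobile electron carrier that also triggers apoptosis when released, from 24.50 to 107.2. The order Sdhd above Sdhb above Sdha above Sdhc held in the first and the third experiments. In the reporter mice Sdha was above Sdhb.

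The TLI/ATS regimen was compared with no treatment in wild-type cDC1s. A single respiratory chain gene was called, Cox6a2, which fell. None of the other 89 nuclear members tested and none of the 28 mitochondrial members tested passed the threshold. That threshold was 0.05 on the Benjamini-Hochberg adjusted p of edgeR's quasi-likelihood test. With 2 libraries a group, a miss does not show that a gene was unchanged. Over all genes 2.70% were called. Cox6a2 was at 1.31 and 0.728 CPM after TLI/ATS and at 45.1 and 39.7 CPM in untreated mice, so the groups were far apart (log2 fold change -5.26 ± 0.34 (SE), adjusted p 0.00616 by the quasi-likelihood test of edgeR, adjusted by Benjamini-Hochberg, n = 2 and 2). Cox6a2 is also known as a gene of plasmacytoid dendritic cells. Of 7 other markers of those cells, 5 fell in this comparison, and their summed level was 240 CPM in both TLI/ATS libraries and 1100 and 1103 CPM in the untreated ones. T cell markers (10 of 10, from 653.6 and 656.9 to 18.32 and 26.66 CPM) and B cell markers (7 of 7, from 567.2 and 583.7 to 39.11 and 48.47 CPM) also fell, and 10 of 15 macrophage markers rose (from 519.3 and 519.7 to 1368 and 1828 CPM). Erythroid markers (7 of 9, from 215.1 and 223.9 to 1479 and 1301 CPM) rose too. Smaller changes were 2 of 9 cDC2 or monocyte-derived markers and 1 of 5 NK cell markers lower, and 2 of 4 tested neutrophil markers and 2 of 5 basophil, mast cell or platelet markers higher. None of 11 cDC1 markers passed the test. The part of these cells in the change of Cox6a2 was not tested, and in bulk samples fewer cells of a type cannot be told apart from less RNA per cell.

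All 13 mitochondrial protein-coding genes were lower in both TLI/ATS libraries than in either untreated library, with log2 fold changes from -0.62 to -0.22 and a median of -0.40, and none passed the adjusted threshold. By comparison 31.4% of all genes tested lay lower without overlap in this 2 against 2 design. The catalytic complex IV subunit mt-Co1 was at 1217 and 1558 CPM after TLI/ATS and at 1890 and 1778 CPM without it. The complex III subunit mt-Cytb was at 668 and 718 against 1059 and 959 CPM (log2 fold change -0.41 ± 0.17, edgeR adjusted p 0.343). The complex I subunit mt-Nd2 had the largest difference, with 127 and 166 against 265 and 228 CPM (-0.62 ± 0.24, edgeR adjusted p 0.313). In each of these 3 genes both treated values lay below both untreated values. The genes mt-Nd2, mt-Nd4l and the complex I subunit mt-Nd5 (249 and 241 against 409 and 342 CPM, adjusted p 0.270), had an unadjusted p under 0.05 in edgeR, as did 15.7% of all genes. The large ribosomal RNA mt-Rnr2 was at 1423 and 2163 against 3138 and 2678 CPM.

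The nuclear set lay on the other side of 0, with a median log2 fold change of 0.195 where all genes had 0.024, and 78 of 90 values were positive. That sign rested on TLI/ATS replicate 2. Without it the nuclear median was -0.17, with 26 of 90 values positive, and without TLI/ATS replicate 1 it was 0.47. With total count scaling it was 0.061, where the median of all genes was -0.099. The mitochondrial median was negative in each of these fits, at -0.77 without replicate 2, -0.10 without replicate 1 and -0.52 with total count scaling. Mitochondrial protein-coding counts per nuclear member count were 0.355 and 0.327 after TLI/ATS and 0.510 and 0.475 without it. The calls turned on which TLI/ATS library was kept. Without TLI/ATS replicate 1, 66 nuclear members were called higher and 1 lower (12.9% of all genes higher), and without TLI/ATS replicate 2, 6 were called higher and 22 lower (12.1% of all genes lower) and 16 mitochondrial members lower. These fits assume that the lone TLI/ATS library varies as the untreated ones do. A group of pseudogene copies of mitochondrial genes bears on the mitochondrial values of this table and of the others. A stretch of chromosome 1 (24611535 to 24616197, minus strand, GRCm38) carries 7 annotated pseudogenes that hold 98.1% to 99.9% of the 31-base words of mt-Co2, mt-Atp6, mt-Co3, mt-Nd3 and mt-Nd4l. They also hold 62.8% of those of mt-Nd4, 29.6% of mt-Co1 and 7.47% of mt-Atp8, and other pseudogenes raise the share to 63.9% in mt-Co1 and hold 6.55% to 16.8% in mt-Cytb, mt-Nd6, mt-Nd2 and mt-Nd5. The copies carried 1.53 to 1.57 counts for each count of mt-Co2, mt-Atp6, mt-Atp8, mt-Co3, mt-Nd3 and mt-Nd4l in the first table. Values of these 6 genes, and in part those of mt-Nd4 and mt-Co1, are therefore uncertain, and how reads that fit both places were treated was not tested.

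EpoR+ and EpoR- cDC1s of TLI/ATS-treated reporter mice were compared with each other. Of 91 nuclear members 4 were called, where 16.7% of all genes were, and none of 15 mitochondrial members was. Cox6a2, Cox4i2 and Sdhc were higher in EpoR+ cells, and Cycs was lower. All adjusted p-values here are from the quasi-likelihood test of edgeR, adjusted by Benjamini-Hochberg over all genes, with 2 libraries a group. This fit did not pair the libraries, since no label says whether same-numbered ones share mice. With a replicate block 25 nuclear and 5 mitochondrial members were called, where 34.3% of all genes were.

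Cox6a2 was at 17.3 and 24.1 CPM in EpoR+ and at 0.847 and 0.713 CPM in EpoR- libraries (log2 fold change 4.70 ± 0.30, adjusted p 0.0005), so both EpoR+ libraries were far above both EpoR- ones. The summed plasmacytoid markers without Cox6a2 overlapped here, at 176.3 and 166 CPM in EpoR+ and 179.8 and 123.6 CPM in EpoR-. Cox6a2 (chr7:128205435-128206387, minus strand) lies within Itgad (chr7:128154376-128223816, plus strand), the integrin alpha D gene of macrophages, and 10.3% of its exon bases are shared with an Itgad exon on the opposite strand. Counting in this table did not use strand. Itgad was at 785 and 841 CPM in EpoR+ and at 6.28 and 7.61 CPM in EpoR-, and the part of its reads in the Cox6a2 counts was not tested. In the first experiment the pair moved differently: Itgad was at 57.6 and 17.9 CPM after TLI/ATS and at 9.93 and 10.6 CPM in untreated mice, where Cox6a2 was higher.

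**Figure D2:**
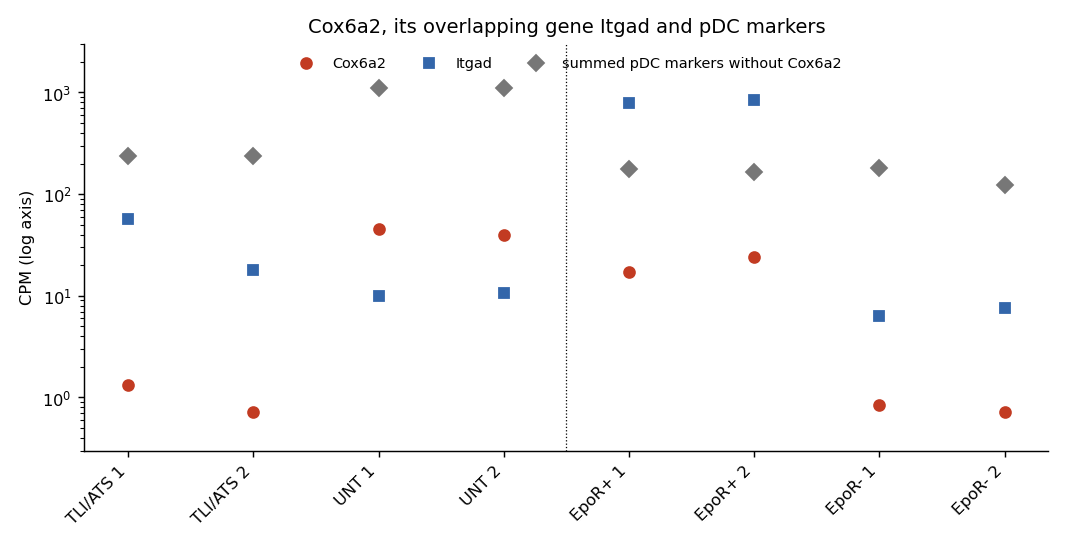
CPM (log axis) of Cox6a2, of Itgad, whose gene body contains Cox6a2, and of the summed plasmacytoid dendritic cell markers without Cox6a2, in each library of the first and second experiments. Cox6a2 is near 40 CPM in untreated mice (45.1 and 39.7) where Itgad is near 10, and at 17.3 and 24.1 in EpoR+ cells where Itgad is at 785 and 841.

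Cox4i2, named after its values were seen because its mean was low, was at 1.79 and 2.80 CPM in EpoR+ and at 0.199 and 0.0594 CPM in EpoR- libraries (4.07 ± 0.78, adjusted p 0.0219). The call was lost without EpoR+ replicate 1 (adjusted p 0.0523) or EpoR+ replicate 2 (0.108). The complex II anchor Sdhc was at 105.4 and 100.2 CPM against 63.5 and 58.9 CPM, well separated (0.73 ± 0.11, adjusted p 0.0104, and 0.0745 without EpoR+ replicate 1). The other complex II genes were close to each other in the 2 groups. Sdha was at 273 and 240 against 232 and 221 CPM, Sdhb at 110 and 95.8 against 96.7 and 85.1 CPM, and Sdhd at 112 and 103 against 114 and 98.6 CPM. Cycs was at 90.6 and 84.7 CPM in EpoR+ and at 134.3 and 119.1 CPM in EpoR-, without overlap (-0.55 ± 0.12, adjusted p 0.0338). That call was lost without any of 3 libraries, EpoR+ replicate 1 (0.119), EpoR+ replicate 2 (0.185) or EpoR- replicate 1 (0.114).

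The nuclear set as a whole was centred near 0 in this comparison, with a median log2 fold change of -0.04 beside 0.016 over all genes. The 12 mitochondrial protein-coding genes tested had a median of -0.01 and a range from -0.43 to 0.22. EpoR+ libraries carried far more macrophage marker RNA, with 15 of 15 markers called higher and sums of 20490 and 20960 CPM against 410 and 420 CPM, and 10 of 11 cDC1 markers were lower (7719 and 9146 against 16230 and 17790 CPM). Erythroid markers (9 of 9 higher, 1848 and 2250 against 174.2 and 261.4 CPM) and cDC2 or monocyte-derived markers (6 of 9 higher and 1 lower, 1910 and 1973 against 103.9 and 116.4 CPM) differed too. Of the other lists, 2 of 7 plasmacytoid markers were higher and 1 lower, 1 of 6 tested B cell markers was higher and 1 lower, and T cell, basophil, mast cell or platelet, and stromal or endothelial markers had 1 higher each. The part of these differences in the 4 calls was not tested. Pathways that feed electrons into the chain held other calls. Of 14 fatty acid oxidation genes 4 were higher, among them Cpt1a, which starts the import of fatty acids into mitochondria (log2 fold change 0.72), and Acadm (0.70). Of 9 genes for other routes of electron entry and for uncoupling 3 were higher, including Sqor, the sulfide oxidase (2.78), and Gpd2, of the glycerol phosphate shuttle, was lower (-0.68). Of 18 genes of the citric acid cycle and pyruvate dehydrogenase only Cs, citrate synthase, was called (-0.47).

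Loss of Epor was examined in spleen and in lymph node cDC1s. In spleen none of 91 nuclear and none of 15 mitochondrial members passed edgeR's quasi-likelihood test, where 0.611% of all genes were called. In lymph node again none was called (0.455% of all genes). None differed in its cKO effect between the tissues (0.317% of all genes). At an unadjusted p under 0.05 edgeR gave 17 nuclear and 5 mitochondrial members in spleen, 2 and 1 in lymph node, and 13 and 1 for the difference between tissues. Over all genes that threshold took 12.99%, 7.51% and 12.5%. DESeq2 called 2 nuclear members and 1 mitochondrial member in spleen, where it called 3.14% of all genes.

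The mitochondrial values in spleen leaned lower in cKO libraries, most of all the ribosomal RNAs. The large ribosomal RNA mt-Rnr2 was at 12190, 11720 and 7629 CPM in controls and at 5332, 4677 and 6205 CPM in cKO libraries (log2 fold change -0.98 ± 0.23, edgeR adjusted p 0.102), so each control lay above each cKO library although the call was missed. The small ribosomal RNA mt-Rnr1 was at 641, 646 and 264 against 222, 193 and 286 CPM (-1.16 ± 0.55, edgeR adjusted p 0.420), and the third control lay inside the cKO range. Among 12 protein-coding genes 11 had a negative log2 fold change, with a median of -0.43 and a range from -0.75 to 0.48. mt-Co1 was at 2434, 2350 and 1735 CPM in controls against 1642, 1718 and 1732 CPM (-0.39 ± 0.15, edgeR adjusted p 0.286), with the third control hardly above the highest cKO library. Malat1, a noncoding RNA kept in the nucleus, was at 11350 to 13350 CPM in the cKO libraries and at 19140 to 20170 CPM in controls, and plasma cell markers were at 2621 to 2955 CPM in sum against 1226 to 1471 CPM (3 of 6 called higher). Of 11 cDC1 markers 1 was higher and of 13 tested macrophage markers 1 was lower. The part of these in the mitochondrial values was not tested. Nuclear members had a median of -0.12, and 18 of 91 lay lower in all 3 cKO libraries than in any control, where 5.44% of all genes did.

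In lymph node the medians were -0.00 for nuclear and -0.17 for mitochondrial members. The mitochondrial median turned to 0.13 without lymph node control 3, and was -0.44 without lymph node cKO 2, -0.07 without lymph node cKO 1, -0.09 without lymph node cKO 3, -0.26 without lymph node control 1 and -0.31 without lymph node control 2, so it gives no direction. Lymph node cKO replicate 2 and lymph node control replicate 3 had the most mitochondrial RNA of their groups. mt-Rnr2, for instance, was at 2710, 3566 and 4621 CPM in controls and at 3410, 5668 and 3219 CPM in cKO libraries, which overlapped. The median difference of the cKO effect, lymph node minus spleen, was 0.14 for nuclear and 0.24 for mitochondrial members. The mitochondrial value ranged from 0.016 without lymph node cKO 2 to 0.52 without lymph node control 3, and the nuclear value from 0.079 to 0.16 over the libraries left out.

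**Figure D3:**
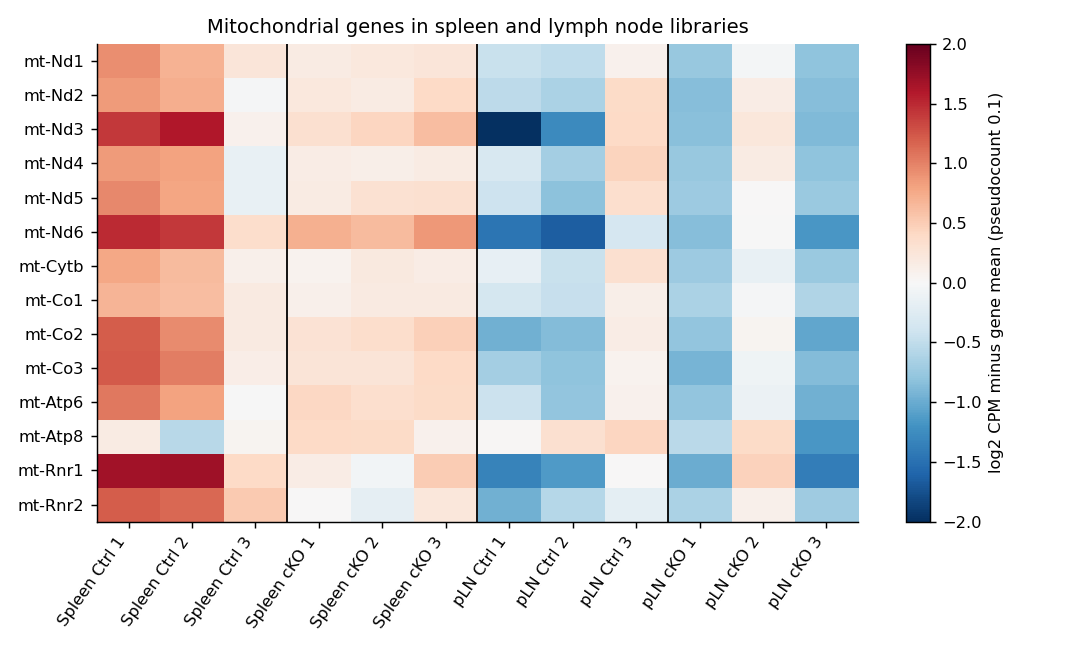
Each of 14 mitochondrial genes (lines) in each of the 12 spleen and lymph node libraries (columns), as log2 CPM minus that gene's mean over the 12. Spleen controls 1 and 2 are highest for most genes (mt-Rnr2 12190 and 11720 CPM), spleen control 3 is nearer to the cKO libraries, and lymph node control 3 and cKO 2 lie above the others of their groups for most genes. Lymph node control 3 is above spleen control 3 for mt-Cytb (545 against 471 CPM), mt-Nd2, mt-Nd3, mt-Nd4, mt-Nd5, mt-Atp6 and mt-Atp8, so the tissues overlap in controls for these genes.

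The lymph node and spleen groups differed far more than the genotypes did. Lymph node cDC1s had less RNA of the mitochondrial genome, of cytochrome c and of many members of complexes IV and V. Some members of complexes I, II, III and V were higher. In controls these included core or catalytic subunits (Ndufv1, Sdha, Uqcrc2, Atp5b), but also the anchor Sdhd and the assembly factor Ndufaf4. The complex III member Uqcrfs1, mt-Cytb and the catalytic mt-Co1 were lower in controls. Among controls 56 of 91 nuclear members were called, 12 higher and 44 lower in lymph node, where 41.3% of all genes were called (21.0% higher and 20.3% lower). Of 15 mitochondrial members 13 were lower and none higher. Among cKO mice 44 nuclear members were called, 8 higher and 36 lower, where 29.4% of all genes were called (14.1% higher and 15.3% lower), and 9 mitochondrial members were lower. In both genotypes 6 nuclear members were higher, 34 were lower, and 9 mitochondrial members were lower. With this scaling, nuclear members were called higher less often than all genes were, in controls and in cKO mice. Median log2 fold changes were -0.33 and -0.28 for nuclear and -1.19 and -0.96 for mitochondrial members in control and cKO mice, against -0.01 and 0.00 over all genes. With libraries scaled by total count alone, the median of all genes moved to 0.28 and 0.25. Nuclear members were then split into 22 higher and 26 lower among controls, where 30.4% of all genes were higher and 13.9% lower, and 24 higher and 14 lower among cKO mice, where 23.03% were higher and 10.1% lower. Mitochondrial members had no higher call with that scaling (11 and 6 lower). Adjusted p-values below are from the quasi-likelihood test of edgeR, adjusted by Benjamini-Hochberg, with 3 libraries a group.

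The 13 mitochondrial genes called in controls included 11 of 12 protein-coding genes and both ribosomal RNAs. Among the 11 were mt-Co2, mt-Atp6, mt-Co3 and mt-Nd3, which the chromosome 1 copies cover nearly wholly. In these libraries the copies carried 2.97 to 6.04 counts for each count of the 6 uncertain genes. The calls of these genes, and in part those of mt-Nd4 and mt-Co1, are therefore uncertain. mt-Co1 was at 2434, 2350 and 1735 CPM in spleen controls and at 1194, 1103 and 1657 CPM in lymph node controls (log2 fold change -1.01 ± 0.15, adjusted p 7.22e-05). In cKO mice it was at 1642, 1718 and 1732 against 979, 1507 and 1006 CPM (-0.80 ± 0.15, adjusted p 0.000835). In both genotypes the tissues did not overlap, and the highest lymph node library was close to the lowest spleen library. mt-Nd6, the complex I subunit encoded on the opposite strand from the other mitochondrial protein genes, showed the largest difference among protein genes. It was at 160.2, 151.1 and 72.8 CPM in spleen controls and at 20.6, 18.1 and 45.3 CPM in lymph node controls (-2.47 ± 0.39, adjusted p 0.000325). In cKO mice its spleen values were 93.2, 88.3 and 104.3 CPM and its lymph node values 31.4, 56.7 and 25.3 CPM (-1.59 ± 0.38, adjusted p 0.00747). In each group pair the lymph node values were all lower. Counting was not strand-specific, so reads from the opposite strand at mt-Nd6 were counted with it, and their part was not tested. mt-Cytb changed by -0.88 (adjusted p 0.000858) and -0.90 (0.00103), which is nearly the same size in the 2 genotypes, although lymph node control 3 (545 CPM) lay above spleen control 3 (471 CPM).

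Both ribosomal RNAs passed the test in controls and missed it in cKO mice. mt-Rnr2 changed by -1.82 ± 0.24 in controls (adjusted p 8.81e-05) and had -0.65 in cKO mice (adjusted p 0.0535). mt-Rnr1 changed by -2.34 ± 0.57 (0.00993) and had -0.90 (0.266). The difference of these effects between genotypes is the same contrast as the tissue difference of the cKO effect, in which no member was called. Of other protein genes mt-Nd1 changed by -1.19 and -0.95, mt-Nd4 changed by -0.95 in controls and had -0.80 in cKO mice (adjusted p 0.077), and mt-Atp8 was not called in either (0.19 and -1.14).

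Cycs, the electron carrier between complexes III and IV, fell by a similar amount in both genotypes. It was at 163.4, 159.3 and 174.1 CPM in spleen controls and at 79.7, 87.7 and 87.2 CPM in lymph node controls (-1.26 ± 0.09, adjusted p 6.23e-08). In cKO mice it was at 165.0, 155.4 and 169.1 against 78.8, 91.1 and 80.2 CPM (-1.22 ± 0.09, adjusted p 1.34e-07). The lowest spleen library was far above the highest lymph node library. Its annotated exons together are long for this set (3404 bases), and its promoter window printed above holds the CREB and NRF1 letters.

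In complex IV no member was higher in lymph node and 10 of 16 (controls) and 9 of 16 (cKO) were lower, with medians of -0.67 and -0.44. Cox7c, a small subunit of the membrane part, was at 394.1, 348.3 and 298.0 CPM in spleen controls and at 154.6, 148.8 and 194.4 CPM in lymph node controls (-1.35 ± 0.12, adjusted p 3.11e-07). It changed by -0.80 ± 0.12 in cKO mice (8.36e-05), from 275.7, 257.5 and 287.8 to 175.8, 224.6 and 159.0 CPM. The tissues were separate in both genotypes, with spleen cKO libraries below spleen control libraries. Cox6c, another small membrane subunit, changed by -0.97 and -0.60, and Ndufa4 by -0.81 and -0.62. Cox4i1, which helps to regulate the enzyme by ATP, was at 843.2, 780.0 and 753.5 against 531.2, 514.6 and 629.0 CPM in controls (-0.80 ± 0.09, adjusted p 2.94e-06) and changed by -0.45 in cKO mice (0.00093). For 3 members named after their values were seen the direction turned with exon length. Cox6a1 (-0.59 and -0.44), Cox8a (-0.47 and -0.29) and Cox6b1 (-0.36 in controls, adjusted p 0.00898, and -0.08 in cKO, adjusted p 0.567) had positive values in controls once a trend with exon length was removed, at 0.05, 0.25 and 0.28. Cox7a2l (-0.46 and -0.33) was lower in both genotypes.

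**Figure D4:**
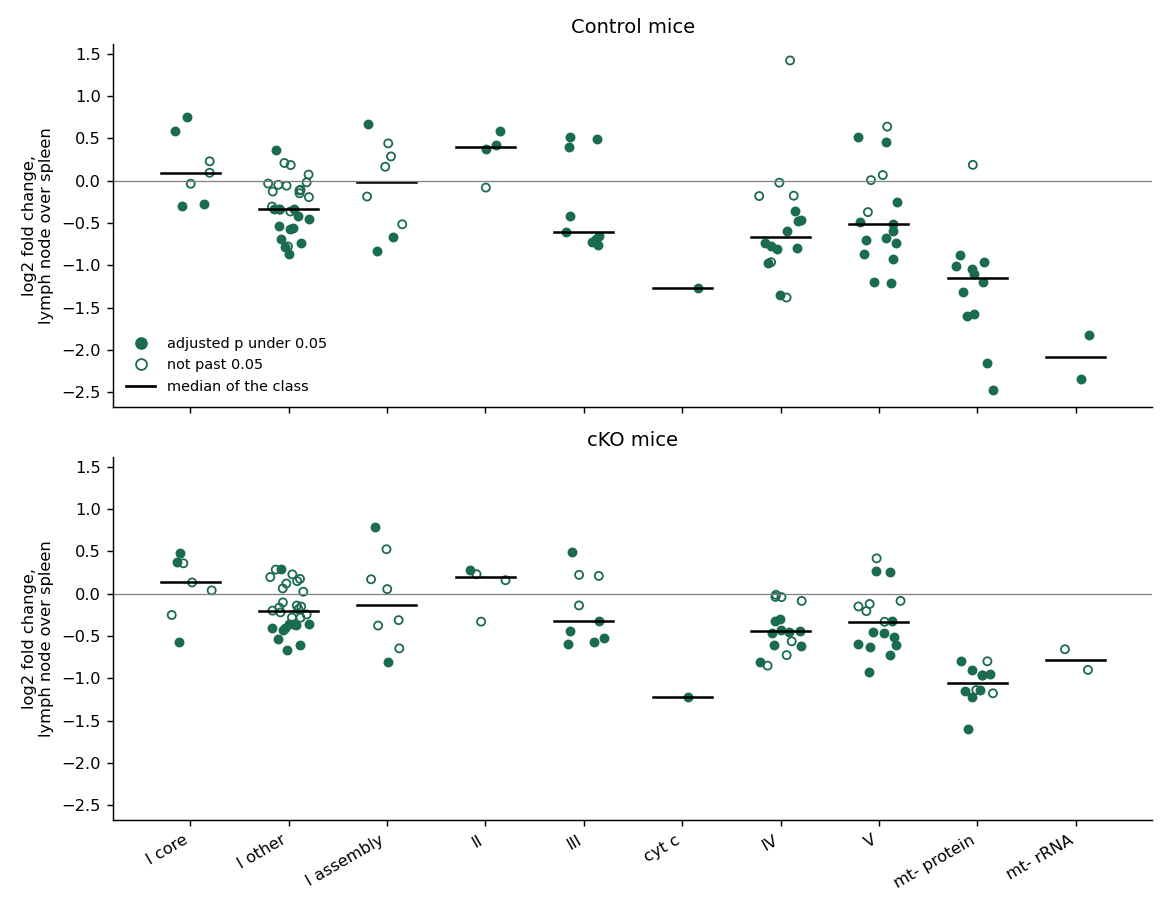
Log2 fold change of lymph node over spleen for each tested member by complex, in control mice (upper panel) and cKO mice (lower panel). Filled points passed the adjusted threshold of 0.05, and the short bar is the median of a class. Complex II lies above 0 in both panels (medians 0.40 and 0.20), complex IV below it, and the mitochondrial protein genes lowest among the large classes (-1.15 and -1.05).

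In ATP synthase 11 of 17 members were lower and 2 higher in control lymph nodes, and 9 and 2 in cKO.  Atp5g3, a gene for the proton-carrying c subunit, was at 212.5, 218.1 and 201.3 CPM in spleen controls and at 109.0, 104.9 and 122.7 CPM in lymph node controls (-1.20 ± 0.09, adjusted p 3.99e-08), and changed by -0.92 in cKO mice. Atp5g1, which encodes the same protein product with another import sequence, changed by -0.67 and -0.63. Atp5mpl and Atp5l, of the membrane part, changed by -1.20 and -0.87 in controls and by -0.72 and -0.45 in cKO, and Atp5e, of the central stalk, by -0.92 and -0.60. The catalytic beta subunit gene Atp5b went the other way, from 408.9, 471.7 and 396.8 CPM in spleen controls to 803.1, 644.5 and 784.1 CPM in lymph node controls (0.51, adjusted p 0.000171), and by 0.26 in cKO mice (0.0289). Atp5c1, the rotating gamma subunit, rose by 0.46 (0.000703) and 0.27 (0.0324). Genes of this complex therefore changed in opposite directions.

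Complex II was the class with no lower call, and 3 of its 4 genes were higher in control lymph nodes. Sdha was at 140.7, 117.0 and 114.6 CPM in spleen controls and at 237.1, 220.8 and 226.6 CPM in lymph node controls (0.59 ± 0.09, adjusted p 0.000145). In cKO mice it was at 131.7, 137.5 and 129.1 against 189.1, 176.8 and 207.8 CPM (0.28, adjusted p 0.0335). The tissues did not overlap for this gene in either genotype. Sdhb was at 95.9, 94.7 and 95.8 against 153.9, 145.0 and 158.6 CPM in controls (0.38, adjusted p 0.00268) and had 0.16 in cKO mice (0.191). Sdhd rose by 0.42 in controls (0.00331) and had 0.23 in cKO mice (0.0974). These fold changes are smaller than the ratios of CPM because the scaling factors of the 2 tissues differ, by the shift of the median given above.

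Complex III was split. Uqcrc2, a core subunit, was at 71.3, 66.6 and 63.0 CPM in spleen controls and at 123.8, 106.4 and 117.2 CPM in lymph node controls (0.50, adjusted p 0.000408, and 0.49 with 0.000651 in cKO). Its partner Uqcrc1 rose by 0.52 in controls (0.00115) and had 0.22 in cKO mice (0.135), and Cyc1 rose by 0.40 (0.0066) and had 0.21 (0.146). Of 9 members 6 were lower in controls and 5 in cKO.

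In complex I, 2 of 7 core subunits were higher in both genotypes. Ndufv1, the subunit that binds NADH, was at 38.3, 25.1 and 36.1 CPM in spleen controls and at 72.3, 70.7 and 62.9 CPM in lymph node controls (0.75 ± 0.15, adjusted p 0.000894), and in cKO mice at 38.3, 38.7 and 34.9 against 61.3, 67.0 and 57.8 CPM (0.49 ± 0.15, adjusted p 0.0222). Every lymph node library was above every spleen library. Ndufs3, a core subunit of the peripheral arm whose promoter window is printed above, was at 39.4, 29.3 and 36.3 against 67.3, 63.1 and 63.7 CPM in controls (0.59 ± 0.13, adjusted p 0.00233) and rose by 0.38 in cKO mice (0.042). Of 29 accessory subunits 12 were lower and 1 higher in controls, and 10 and 1 in cKO. Ndufc1, an accessory membrane subunit, changed by -0.87 and -0.61, and Ndufa5 had -0.34 in controls (adjusted p 0.161) and changed by -0.66 in cKO mice (0.0146). Ndufb4 had 0.07 in controls and rose by 0.29 in cKO mice (0.022). Of 8 assembly factors Ndufaf8 fell in both genotypes (-0.83 and -0.80). Ndufaf2 had 0.44 in controls and rose by 0.79 in cKO mice (0.0291), but 65.65% of its exon bases are shared with a transcript on the opposite strand, and counting was not strand-specific.

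Exon length, which counts all annotated exon bases of a gene and not those of a single transcript, moved with these differences across all genes. The median log2 fold change of lymph node over spleen in controls was -1.12 for genes of up to 500 exon bases, -0.66 for 500 to 1000, -0.22 for 1000 to 2000, 0.11 for 2000 to 4000 and 0.13 above 4000 bases, and in cKO mice -0.66, -0.36, -0.18, 0.06 and 0.12. Many members are short, with 20 of the tested nuclear members between 500 and 1000 bases, and no member of up to 1000 bases was called higher. With the trend removed, 17 nuclear members were higher and 28 lower in controls, where 18.5% of all genes were higher and 20.9% lower. In cKO mice 13 were higher and 19 lower, where 13.1% and 14.96% of all genes were. Of the 56 calls in controls 38 kept call and direction, and of the 44 in cKO 25 did; 9 of 13 and 6 of 9 mitochondrial calls did. By class in controls, complex II kept 3 higher and none lower, ATP synthase had 2 higher and 9 lower, and complex IV had 3 higher and 7 lower. Cycs stayed at -1.46 and -1.27, Atp5g3 at -1.24 and -0.86, Cox6c at -1.18 and -0.67, and Cox7c at -1.01 and -0.52. Ndufv1 stayed at 0.63 and 0.49, mt-Co1 at -0.84 and -0.59 and mt-Nd6 at -1.66 and -1.09, while Sdha was at 0.33 and 0.16, the latter no longer called. The mitochondrial calls lost were mt-Atp6, mt-Nd2, mt-Nd3 and mt-Nd4 in controls and mt-Co2, mt-Nd2 and mt-Nd5 in cKO mice. Nuclear calls lost in cKO mice also included Atp5b (0.14), Cox6a1, Cox7a2l and Ndufa5.

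**Figure D5:**
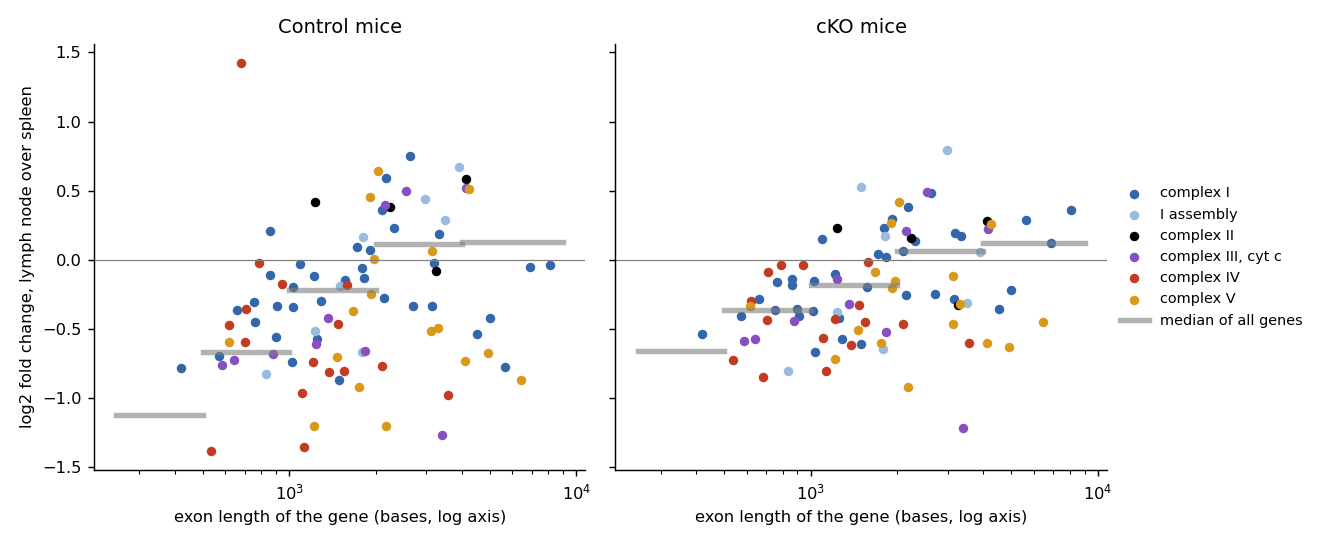
Log2 fold change of lymph node over spleen against exon length (log axis, bases) for the tested nuclear members in control and cKO mice. Grey bars give the median of all genes in each length class. The grey bars climb from -1.12 for the shortest to 0.13 for the longest genes in controls. Cycs, at 3404 bases and -1.26, lies far below them.

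Several calls rested on single libraries, mostly in cKO mice, where fold changes were smaller. Among the higher genes in cKO mice, Ndufv1 lost its call without spleen cKO 3, lymph node cKO 1 or lymph node cKO 2 (edgeR adjusted p 0.0572 to 0.0747), and Ndufs3 without spleen cKO 1 or 2 or lymph node cKO 1 or 3 (0.0792 to 0.158). Sdha lost it without spleen cKO 1 or 3 or lymph node cKO 1 or 3 (0.0661 to 0.172), and Atp5b without spleen cKO 3 or lymph node cKO 1 or 3 (0.0776 to 0.0946). Atp5c1 lost it without any library but spleen cKO 1 (0.0662 to 0.0882), Ndufb4 without spleen cKO 2 or lymph node cKO 1 or 2 (0.0583 to 0.0721), and Ndufaf2 without spleen cKO 2 or 3 or lymph node cKO 2 (0.0678 to 0.146). Uqcrc2 was the higher gene named above that kept its call without any 1 of these libraries. Of the exon bases of Uqcrc2, 19.75% are shared with Pdzd9 on the opposite strand, and the part of Pdzd9 reads in its counts was not tested. Among the lower genes in cKO mice, Ndufa5 lost its call without spleen cKO 3 or lymph node cKO 2 (0.06 to 0.0784), Atp5l without spleen cKO 1 or 3 or lymph node cKO 1 or 3 (0.0546 to 0.0868), Cox7a2l without spleen cKO 1 or lymph node cKO 1 (0.0561 to 0.0602), and Cox8a without any library but lymph node cKO 2 (0.0952 to 0.194). In controls, Cox6b1 lost its call without spleen control 1 (0.0784), and mt-Nd4 without spleen control 1 or 2 or lymph node control 1 or 2 (0.063 to 0.144). The other mitochondrial genes with a call that rested on a library were, in controls, mt-Nd2 (lost without spleen control 1 or 2 or lymph node control 1, 0.0626 to 0.0926), mt-Nd3 (spleen control 2 or lymph node control 1 or 2, 0.0505 to 0.0602) and mt-Nd5 (spleen control 1, 0.0674). In cKO mice they were mt-Co2 (spleen cKO 3 or lymph node cKO 1 or 3, 0.0554 to 0.0721), and mt-Nd2 (0.0607 to 0.11) and mt-Nd5 (0.0568 to 0.103), both lost without any library but lymph node cKO 2. Mitochondrial calls numbered 10 to 13 in controls and 6 to 12 in cKO mice over the libraries left out. With total count scaling Cox7a2l and Cox8a were called in neither genotype, Cox6b1 was not called in controls, and Cox4i1, Cox6a1, Atp5l and Ndufa5 were not called in cKO mice. Ndufaf8 was called in neither genotype with the length trend removed.

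Other lists of mitochondrial genes were counted in the same way, where 21.0% of all genes were higher and 20.3% lower in controls. In control lymph nodes 11 of 14 fatty acid oxidation genes were higher and 2 lower, with Acadvl, which starts oxidation of long chains, at a log2 fold change of 1.14. Of 18 genes of the citric acid cycle and pyruvate dehydrogenase 8 were higher and none lower, with Idh2 at 1.41. The mitochondrial ribosome had 17 higher and 18 lower of 77, which is near the share of all genes. In cKO mice the same lists had 2 higher and 1 lower, 5 and 1, and 5 and 11, where 14.1% and 15.3% of all genes were. Other assembly factors of the chain had 11 higher and 8 lower of 36 in controls, and 6 and 7 in cKO. Regulators of mitochondrial gene expression had 4 and 3 of 19, and 3 and 2 in cKO. Mitochondrial RNA processing genes had 2 and 0 of 17, and 2 and 2 in cKO. Genes of other electron entry and uncoupling had 1 and 1 of 10, and 1 and 3 in cKO. Lymph node libraries carried more T cell RNA, with 9 of 10 markers higher in controls (172 to 190 against 26.8 to 39.0 CPM in sum) and 8 in cKO (124 to 134 against 31.3 to 37.3 CPM). Of 11 cDC1 markers 7 were lower and 1 higher in controls, and 8 and 1 in cKO. Markers of several other cells were lower in lymph node libraries than in spleen. Plasma cell markers were at 307 to 331.5 CPM against 1226 to 1471 CPM in controls (4 of 6 lower, 1 higher) and at 280.3 to 329.1 against 2621 to 2955 CPM in cKO (5 of 6 lower). Erythroid markers (4 of 6 tested lower in both genotypes) were at 0.9316 to 1.34 against 85.81 to 103.7 CPM in controls and at 0.7978 to 1.45 against 58.83 to 65.72 CPM in cKO. Neutrophil markers (5 of 5 tested lower in both) were at 0.3187 to 1.297 against 29.07 to 31.73 CPM and at 0.8652 to 1.478 against 49.93 to 57.36 CPM. Pancreas markers, all at 0 in lymph node libraries, were at 3.215 to 14.33 CPM in spleen controls and 12.01 to 14.34 CPM in spleen cKO libraries (5 of 5 tested lower). Macrophage markers were split, with 4 higher and 4 lower of 13 in controls and 1 and 5 in cKO. The remaining lists of cell markers had between 0 and 3 calls in a direction. The part of these cells and of the sort gates in the differences was not tested.

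Members with a promoter match were found among the higher, the lower and the uncalled genes of the tissue comparison. Of all 91 nuclear members tested in controls 12 were higher and 44 lower, where 21.0% of all genes were higher and 20.3% lower. In controls the 13 NRF1-match genes held 3 higher, 6 lower and 4 uncalled, and the 10 YY1-match genes 1 higher, 8 lower and 1 uncalled. ETS-match genes were split 1 higher and 4 lower, among them Ndufs3 (higher) and Cox8a (lower, but above 0 with the length trend removed). CREB-match genes held 2 lower and 3 uncalled, with Cycs among the lower. The 8 ERRa-match genes held 1 higher, 4 lower and 3 uncalled. Whether a motif goes with a direction was not tested.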

How the data were processed

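Gene counts of 20 bulk RNA-seq libraries were used as the authors deposited them, in 3 featureCounts tables with raw counts on GRCm38 (mm10). Alignment used HISAT2 (2.1.0 for the third table), with SAMtools and StringTie also named for the first, per the submitters' processing notes. Per the file headers, the second table was counted with featureCounts 2.0.3 (reads, no strand) and the third with 2.0.8 (read pairs, no strand, Ensembl release 100). Multi-mapping treatment is not given in the sources used here. Each table was analysed alone. filterByExpr (count of 10, total of 15) chose the genes tested, which were scaled by TMM and tested with edgeR 4.0.16 (glmQLFit, robust, glmQLFTest; R 4.3.3) over all genes, with Benjamini-Hochberg adjustment and a threshold of 0.05. All 12 libraries of the third table shared 1 fit. CPM is counts over the library's total. Exon lengths came from the tables, and those of the second were used for the first. Alternatives were DESeq2 1.42.0, other scalings, no filter, a replicate block, leaving out each library and, added after the values were seen, removal of a length trend (lowess, span 0.2) and adding the chromosome 1 copies to shares. The fits were also run on simulated counts with the same spread for every gene, which does not show how they behave on the spread of these libraries. In each comparison, members past the threshold were named up to 8 per direction and set by size of change where the mean log2 CPM was 3 or more, together with mitochondrial protein genes, isoform families and Sdha to Sdhd, Cyc1 and Cycs; Cox4i2 in the reporter mice, Cox4i1, Cox6a1, Cox6b1, Cox7a2l, Cox8a, Sdhb and Cyc1 in the tissue comparisons, and the ribosomal RNAs were named after their values were seen. Members and lists were chosen with earlier results of these data known. Pseudogenes by annotation (Ndufa11b, Ndufb4c, Ndufs6b and Cox6c2) and Ndufb1-ps were left out.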

Additional observations from a re-analysis of the deposited data

How the results depend on the processing

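In the comparison of EpoR+ with EpoR- the 4 nuclear calls became 9 with DESeq2 (22.5% of all genes called) and 7 with no filter (13.3%). When 1 library was left out, the nuclear median log2 fold change lay between -0.117 and 0.050. With a replicate block there were 25 nuclear and 5 mitochondrial calls, where 34.3% of all genes were called. The labels do not say that a number marks shared animals. Same-numbered libraries correlated at 0.561, but with 2 libraries a group the block is only a hint. In the TLI/ATS comparison leaving out 1 library gave 1 to 67 nuclear and 0 to 16 mitochondrial calls. In spleen cKO, mitochondrial calls were 1 with DESeq2, 3 with no filter and 1 with only those groups in the fit. Nuclear calls were 2 with DESeq2, 1 with no filter and 1 with the length trend removed. Of all genes 3.14% were called with DESeq2 and 1.19% with no filter. The share was 0.665% with only those groups and 0.904% with the length trend removed. The tissue difference of the cKO effect had 1 nuclear call with no filter, where 0.994% of all genes were called. In the tissue comparisons leaving out 1 library gave 47 to 54 (control) and 30 to 41 (cKO) nuclear calls. Over all genes these fits called 5877 to 7014 of 18367 to 18518 in controls, and 3856 to 4496 of 18315 to 18595 in cKO mice. With the length trend removed, values turned positive for Cox6a1 (0.049), Cox8a (0.25), Cox6b1 (0.28) and Ndufa5 (0.058) in controls and for Cox6b1 (0.34) and Cox8a (0.18) in cKO mice, and Cox6b1 in cKO mice was at 0.16 under total count scaling; the cause was not tested. mt-Atp8 in controls ranged from -0.065 (without spleen control replicate 2) to 0.39 when 1 library was left out. The mitochondrial share of protein-coding genes alone was 0.549% (TLI/ATS), 0.762% (untreated), 1.48% (EpoR-), 0.390% and 0.301% (spleen control and cKO), and 0.231% and 0.197% (lymph node). With the chromosome 1 copies added to all mitochondrial genes the share was 1.06% in TLI/ATS and 1.502% in untreated libraries. Counting error of the shares was at most 0.00485 percentage points, and the number of libraries (2 or 3 a group) limits the tests as well.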

Other observations

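The chromosome 1 copies of mitochondrial genes took a different part of the signal in each table. They share sequence with 8 genes. Of these, mt-Co2, mt-Atp6, mt-Co3, mt-Nd3 and mt-Nd4l, nearly wholly covered, and mt-Atp8, which lies between them, together made up 36.1% to 36.7% of mitochondrial protein-coding counts in the TLI/ATS experiment, 0.794% to 0.943% in the reporter mice and 1.11% to 1.97% in the spleen and lymph node libraries. The copies carried 2789 to 4454 CPM, 121 to 166 CPM and 63.7 to 396 CPM in the same order. mt-Nd1, mt-Rnr1 and mt-Rnr2 share no 31-base word with them.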
